A study of Homo sapiens with 4 samples.

Results

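The SR proteins and the heterogeneous nuclear ribonucleoproteins (hnRNPs) were examined in darolutamide-resistant prostate cancer cells after knockdown of the lncRNA LOC730101. Members were chosen by name from the count table, as the SRSF genes and the HNRNP genes without their numbered pseudogenes. This gave 36 genes of the 60606 in the table, 12 SR protein genes and 24 hnRNP genes. The cells were DaroR, an LNCaP-derived line made resistant by long culture in darolutamide, an antiandrogen drug, and LNCaP is a hormone-responsive prostate cancer line. The siControl group (2 libraries) received control siRNA and the siLOC730101 group (2 libraries) received a pool of siRNAs against LOC730101, by transient transfection of the same resistant line. All 4 libraries therefore carry the resistant state, 1 line stands for it, and no untransfected or parental cells are compared here. The labels do not say that the replicates were separate cultures, so p-values measure the spread between these libraries, which may be technical. In bulk RNA, a change in the number of cells of a kind and a change in RNA per cell cannot be told apart.

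SR proteins carry RNA recognition motifs and a tail rich in arginine-serine repeats. They bind exonic enhancers, recruit the spliceosome to weak splice sites and, in several cases, accompany mRNA out of the nucleus. hnRNPs coat nascent transcripts, and many of them silence exons or compete with SR proteins for the same regions, so that the balance of the families is known to set exon choice. Both families control their own level through alternative exons that send the mRNA to nonsense-mediated decay.

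The libraries held 39213498 to 53368158 counts, and the siLOC730101 mean was 80.4% of the siControl mean. LOC730101 (ENSG00000216775 in the table) was counted 2560 and 2370 times in the siControl libraries but 633 and 680 times after its knockdown, which is -1.56 on the log2 scale (SE, the standard error, 0.12, edgeR-adjusted p = 4.34e-06). The targeted gene was lower in both libraries labelled as its knockdown. The prostate luminal markers KLK3 and KRT8 were at 1487 to 1916 and 538.1 to 647.4 normalized CPM (counts scaled to 1000000 per library) over the 4 libraries. Leukocyte markers summed to at most 0.256 CPM, and the 3 basal markers to at most 0.632 CPM, all of it KRT14, with KRT5 and TP63 at 0 in every library. The 5 fibroblast markers summed to 13.9 to 18.0 CPM in siControl and 14.8 to 15.1 CPM in siLOC730101, mostly COL1A1, with COL1A2 and PDGFRA at 0 in every library. The 3 endothelial markers summed to 6.64 to 9.44 CPM in siControl and 5.84 to 7.01 CPM in siLOC730101, nearly all VWF, with CDH5 at 0 in every library. Over all 19349 genes tested, 41 were higher and 14 were lower in siLOC730101 with an adjusted p under 0.05.

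Of the 36 members, 31 passed the filter on low counts, 11 SR protein genes and 20 hnRNP genes. SRSF12, a splicing repressor, had 4 counts in siControl replicate 2 and 0 counts in the other libraries. HNRNPCL1, HNRNPCL2, HNRNPCL3 and HNRNPCL4, retrocopies related to HNRNPC, had 0 counts in every library. For counting error only, this allows up to 0.0562 CPM in the deepest library and 0.0765 CPM in the shallowest. The bound takes counts as independent, and may be too low where both reads of a pair were counted. The other members were deeply covered, with 1471 to 41963 counts in a library.

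**Figure D1:**
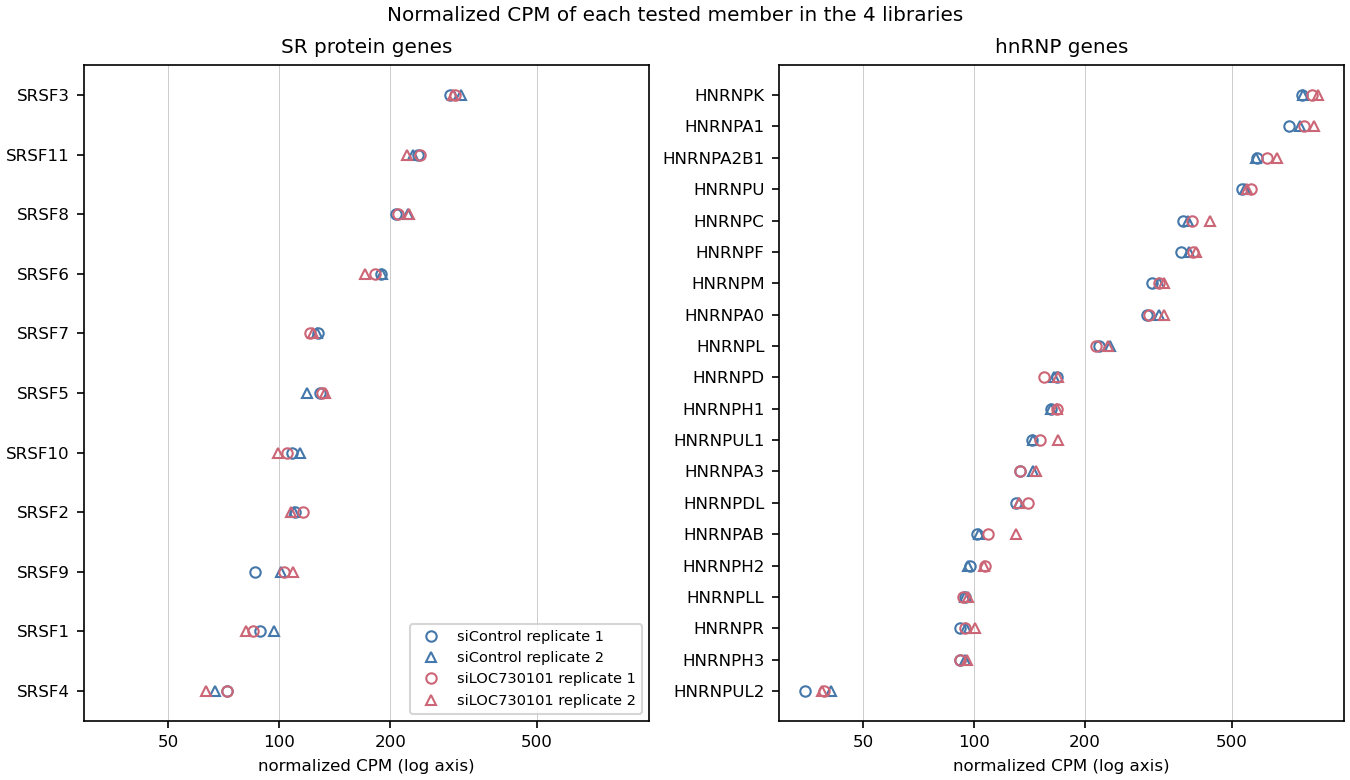
Normalized CPM on a log axis of the 11 SR protein genes and 20 hnRNP genes that were tested, with 1 point for each of the 2 siControl (blue) and 2 siLOC730101 (red) libraries. Levels ranged from 34.8 CPM for HNRNPUL2 to 857.3 CPM for HNRNPK, and the 4 points of a gene lie close together compared with the distance between genes.

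Knockdown of LOC730101 was followed by no called change in either family. In edgeR's quasi-likelihood fit, 0 of the 11 SR protein genes and 0 of the 20 hnRNP genes passed an adjusted threshold of 0.05 in either direction, where 0.284% of all genes tested did (0.212% higher, 0.0724% lower). DESeq2 called 0 members at the same adjusted threshold, where it called 3.12% of genes. At an unadjusted p under 0.05 in edgeR, 1 member was higher (HNRNPAB) and 0 were lower, against 6.43% and 4.39% of all genes. The study's methods name an unadjusted p under 0.05 in DESeq2 with a base mean above 50. By that rule HNRNPAB and HNRNPA2B1 were higher and 0 members were lower, where 7% of genes were higher and 3.33% were lower. For this knockdown the paper's results name an adjusted p under 0.05 instead. They report many more genes than the 55 that edgeR and the 297 that DESeq2 called here. The standard errors of the log2 fold changes lay between 0.067 and 0.11, with a median of 0.077 for the members and 0.17 for all genes tested. The 95% intervals of all 31 members lay inside a 1.5-fold change in either direction, and so did those of 9787 of the 19349 genes tested. Among the members, the lowest bound of any interval was a fold of 0.789 (SRSF1), and the highest was 1.34 (HNRNPAB).

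**Figure D2:**
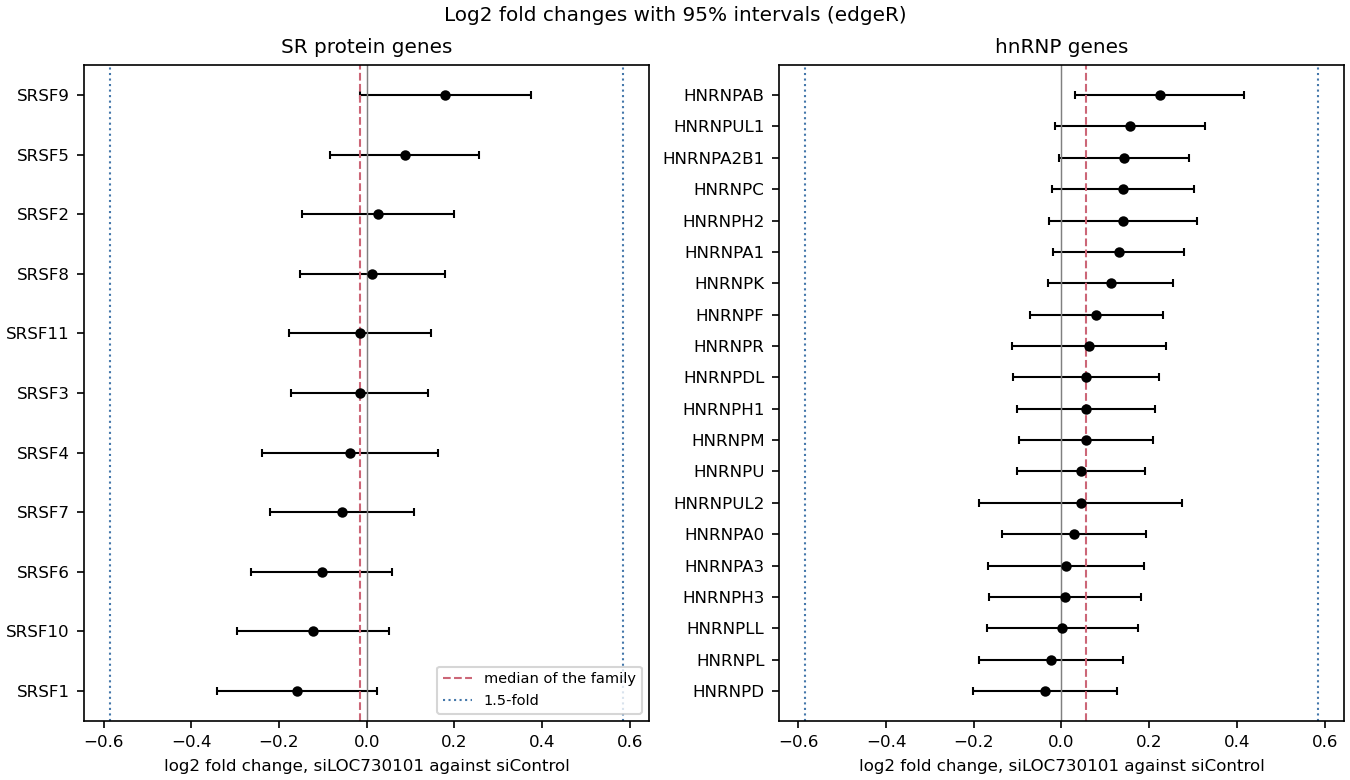
Log2 fold change of siLOC730101 against siControl for each tested member, with the 95% interval from the edgeR fit (horizontal line), the family median (red dashes) and a 1.5-fold change (blue dots). No interval reaches the 1.5-fold lines, and that of HNRNPAB is the only one that leaves out 0.

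The SR protein genes lay on both sides of 0. Of the 11 genes, 4 were above 0 and 7 were below, with a median log2 fold change of -0.016 against -0.0021 for all genes tested, and a range from -0.16 to 0.18. In 4 of the genes both siLOC730101 libraries were below both siControl libraries (36.4%, where 20.5% of all genes were), and in 2 genes they were above (18.2%, where 21.3% of all genes were). The counts below were 4 of 11 under each of the scalings tried, while the share of all genes below ran from 20.5% to 24.3%. With upper-quartile factors and with library size only, 1 gene was above instead of 2.

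SRSF1, the founding member of the family, which binds purine-rich exonic enhancers and is counted as an oncoprotein, had the lowest log2 fold change in the fit of all 4 libraries. It lies on chromosome 17 of GRCh38 from 58000919 to 58007346. Its normalized CPM was 88.5 and 97.0 in siControl and 85.0 and 81.0 in siLOC730101. The siLOC730101 libraries were both lower, without overlap, but the gap between the nearest libraries was smaller than the difference between the siControl libraries. The log2 fold change was -0.16 (SE 0.086, edgeR-adjusted p = 0.539, 95% interval -0.34 to 0.023). Leaving out siControl replicate 1 gave -0.22 for SRSF1, and leaving out siControl replicate 2 gave -0.089.

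SRSF10, which acts as a sequence-specific activator or as a repressor depending on its phosphorylation, had 108.1 and 114.0 CPM in siControl and 104.8 and 99.3 CPM in siLOC730101. Its log2 fold change was -0.12 (SE 0.081, edgeR-adjusted p = 0.639). SRSF6, an exonic enhancer binding protein of the group with 2 RNA recognition motifs, had 188.7 and 189.6 CPM in siControl and 181.5 and 170.7 CPM in siLOC730101. Its siControl libraries were nearly equal, and both siLOC730101 libraries were lower, the second more so. The log2 fold change of SRSF6 was -0.10 (SE 0.075, edgeR-adjusted p = 0.684). SRSF7, a zinc knuckle protein that takes part in mRNA export, was the other gene without overlap, with 127.4 and 126.8 CPM in siControl and 121.0 and 123.6 CPM in siLOC730101, a log2 fold change of -0.056.

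SRSF9, close to SRSF1 in sequence, had the highest log2 fold change of the SR protein genes in the fit of all 4 libraries. Its GRCh38 position is chromosome 12, 120461672 to 120469748. Its libraries gave 86.1 and 101.2 CPM in siControl and 103.1 and 108.9 CPM in siLOC730101, so that the groups did not overlap but the siControl libraries differed from each other by more than the siLOC730101 libraries did. The log2 fold change was 0.18 (SE 0.092, edgeR-adjusted p = 0.517, 95% interval -0.016 to 0.37). It rested on the siControl libraries, with 0.067 for SRSF9 without siControl replicate 1, below the 0.15 of SRSF5 in that fit, and 0.30 without siControl replicate 2. SRSF5, first described as an insulin-induced gene, had 129.1 and 118.7 CPM in siControl and 130.2 and 132.9 CPM in siLOC730101, with a log2 fold change of 0.086 (SE 0.080, edgeR-adjusted p = 0.775).

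SRSF3 and SRSF8 lay close to 0. SRSF3, the smallest SR protein, had 290.9 and 312.1 CPM in siControl and 300.0 and 296.2 CPM in siLOC730101. SRSF8, a retrogene of SRSF2 with a single exon block in the table, had 207.4 and 223.2 CPM in siControl and 209.3 and 225.0 CPM in siLOC730101. In both genes the groups overlapped, with log2 fold changes of -0.016 for SRSF3 and 0.012 for SRSF8. SRSF2, which binds mixed enhancers and is mutated in myeloid neoplasms, SRSF4 and SRSF11 also overlapped between the groups, with log2 fold changes of 0.026, -0.038 and -0.016. The direction of SRSF2 and SRSF8 turned with upper-quartile factors and with library size only, and each of SRSF2, SRSF3, SRSF4, SRSF8 and SRSF11 turned without a single library.

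The hnRNP genes lay mostly above 0, by small amounts. Of the 20 genes, 18 were above 0 and 2 were below, against 49.6% above 0 for all genes tested, with a median log2 fold change of 0.056 and a range from -0.037 to 0.22. In 11 of them (55%) both siLOC730101 libraries were above both siControl libraries, where 21.3% of all genes were, and in 0 of them were both below, where 20.5% of all genes were. The number above 0 ranged from 14 to 20 when each library was left out. All of these counts also depended on the scaling. With upper-quartile factors 14 were above 0, 9 genes were above without overlap and 2 below. With library size only the numbers were 14, 7 and 3. In these 2 scalings the median of all genes tested was -0.033 and -0.039, and the hnRNP median was 0.025 and 0.019. The hnRNP median was 0.058 above that of all genes in each, but a change of scaling shifts all genes nearly alike. That difference could therefore hardly move with the scaling. It ranged from 0.036 without siControl replicate 1 to 0.12 without siLOC730101 replicate 1.

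Among the A/B group, which holds the classical exon silencers, HNRNPAB had the highest log2 fold change and the lowest p of all members. HNRNPAB lies on chromosome 5 of GRCh38 from 178204533 to 178211163. Its normalized CPM was 101.8 and 103.1 in siControl and 109.3 and 129.9 in siLOC730101. The siControl libraries were nearly equal, and siLOC730101 replicate 2 stood well above siLOC730101 replicate 1. The log2 fold change was 0.22 (SE 0.091, edgeR-adjusted p = 0.361, 95% interval 0.031 to 0.42). Without siLOC730101 replicate 1 it was 0.35 with an adjusted p of 0.00250 in edgeR, and without siLOC730101 replicate 2 it was 0.091 with an adjusted p of 0.926 in edgeR.

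HNRNPA2B1, which also sorts miRNAs and reads modified RNA, lies on chromosome 7 (GRCh38, 26171151 to 26201529). Its libraries gave 585.2 and 580.8 CPM in siControl and 623.8 and 663.0 CPM in siLOC730101, a log2 fold change of 0.14 (SE 0.069, edgeR-adjusted p = 0.486). Both siLOC730101 libraries were above both siControl libraries, which were nearly equal, and the gap between the groups was close to the difference between the siLOC730101 libraries. HNRNPA1, the best studied hnRNP and a counterpart of SRSF1 in splice site choice, lies on chromosome 12 (GRCh38, 54280193 to 54287088). Its libraries gave 716.7 and 767.3 CPM in siControl and 787.4 and 836.6 CPM in siLOC730101, a log2 fold change of 0.13 (SE 0.070, edgeR-adjusted p = 0.543). For HNRNPA1 the gap between the groups was smaller than the spread within each of them. In both groups replicate 2 was above replicate 1, and whether the numbers mark pairs is not known.

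The other A/B and D genes were closer to 0. HNRNPA0 had a log2 fold change of 0.029 and HNRNPA3 of 0.011, with overlapping groups. HNRNPD (AUF1), known for turnover of mRNAs with AU-rich elements, had 167.9 and 164.5 CPM in siControl and 155.2 and 168.7 CPM in siLOC730101, a log2 fold change of -0.037. Its paralog HNRNPDL had a log2 fold change of 0.056. HNRNPD and HNRNPL were the hnRNP genes below 0, and both turned above 0 without siLOC730101 replicate 1, and HNRNPL also without siControl replicate 2.

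HNRNPC, which binds uridine tracts and keeps Alu-derived exons out of mRNA, had 368.8 and 381.5 CPM in siControl and 390.6 and 436.9 CPM in siLOC730101. Its log2 fold change was 0.14 (SE 0.076, edgeR-adjusted p = 0.540), and without siLOC730101 replicate 1 it was 0.23 with an adjusted p of 0.0308 in edgeR. Leaving out siLOC730101 replicate 2 instead gave 0.056 for HNRNPC, with an edgeR-adjusted p of 0.972. Among the U group, which bind RNA and chromatin in the nuclear scaffold, HNRNPUL1 had 143.8 and 144.2 CPM in siControl and 151.4 and 169.4 CPM in siLOC730101. The log2 fold change of HNRNPUL1 was 0.16 (SE 0.080, edgeR-adjusted p = 0.522), and without siLOC730101 replicate 1 it was 0.24 with an edgeR-adjusted p of 0.0495. Leaving out siLOC730101 replicate 2 instead gave 0.070 for HNRNPUL1, with an edgeR-adjusted p of 0.962. HNRNPU had 534.6 and 544.3 CPM in siControl and 563.7 and 549.4 CPM in siLOC730101 (log2 fold change 0.045), and HNRNPUL2 had a log2 fold change of 0.044.

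HNRNPK, a poly(C)-binding protein and a partner of many nuclear lncRNAs, was the most abundant member. Its GRCh38 position is chromosome 9, 83968083 to 83980616. Its libraries gave 776.3 and 782.1 CPM in siControl and 827.4 and 857.3 CPM in siLOC730101, a log2 fold change of 0.11 (SE 0.067, edgeR-adjusted p = 0.584). The F/H group, which binds runs of guanines, held HNRNPF with 364.7 and 383.7 CPM in siControl and 391.7 and 399.0 CPM in siLOC730101 (log2 fold change 0.079, SE 0.071, edgeR-adjusted p = 0.760). HNRNPH2 had 97.6 and 96.1 CPM in siControl and 106.8 and 106.7 CPM in siLOC730101, a log2 fold change of 0.14, with little spread within either group. HNRNPH1 had a log2 fold change of 0.056 and HNRNPH3 of 0.0080. HNRNPM, HNRNPR, HNRNPL and its paralog HNRNPLL, known for the exon switch of CD45 in T cells, had log2 fold changes of 0.055, 0.062, -0.024 and 0.0021.

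The balance of the families was also compared within libraries, where the scaling between libraries cancels. The 24 hnRNP genes took 0.548% and 0.564% of all counts in siControl and 0.572% and 0.579% in siLOC730101. The 12 SR protein genes took 0.167% and 0.171% in siControl and 0.167% and 0.158% in siLOC730101. The ratio of hnRNP counts to SR protein counts was 3.29 and 3.30 in siControl and 3.42 and 3.67 in siLOC730101, 3.30 ± 0.011 against 3.55 ± 0.17 (SD, n = 2). Both siLOC730101 libraries were higher, by 7.61% in the mean, and the difference between them was larger than that between the siControl libraries. The two-sided exact permutation test gave p = 0.333, the smallest that 2 against 2 libraries allow. Leaving out siLOC730101 replicate 2 gave a mean rise of 3.88%, and leaving out siLOC730101 replicate 1 gave 11.3%. The ratio of SRSF1 to HNRNPA1 per kilobase of exon was 0.143 and 0.146 in siControl and 0.125 and 0.112 in siLOC730101. This pair holds the member with the lowest log2 fold change, so the lower ratio restates the values of the 2 genes. Other pairs can go the other way, since the log2 fold change of SRSF9 (0.18) was above that of HNRNPA1 (0.13).

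**Figure D3:**
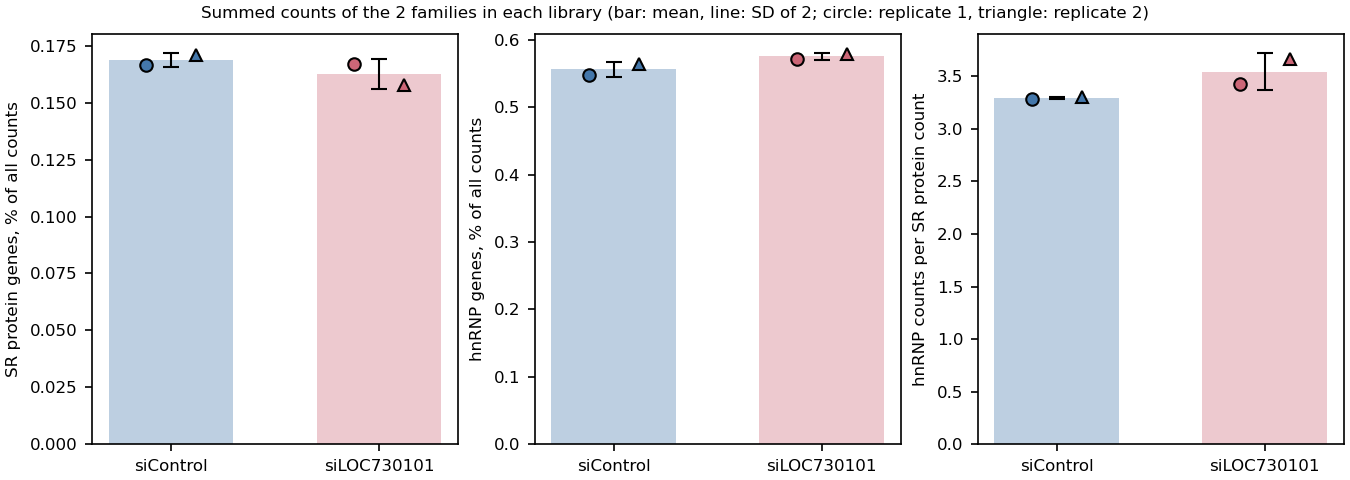
Summed counts of the SR protein genes and of the hnRNP genes as a percent of all counts, and their ratio, in each library (bar: mean of 2, line: SD, circle: replicate 1, triangle: replicate 2; axes start at 0). The ratio is 3.29 and 3.30 in siControl and 3.42 and 3.67 in siLOC730101.

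**Figure D4:**
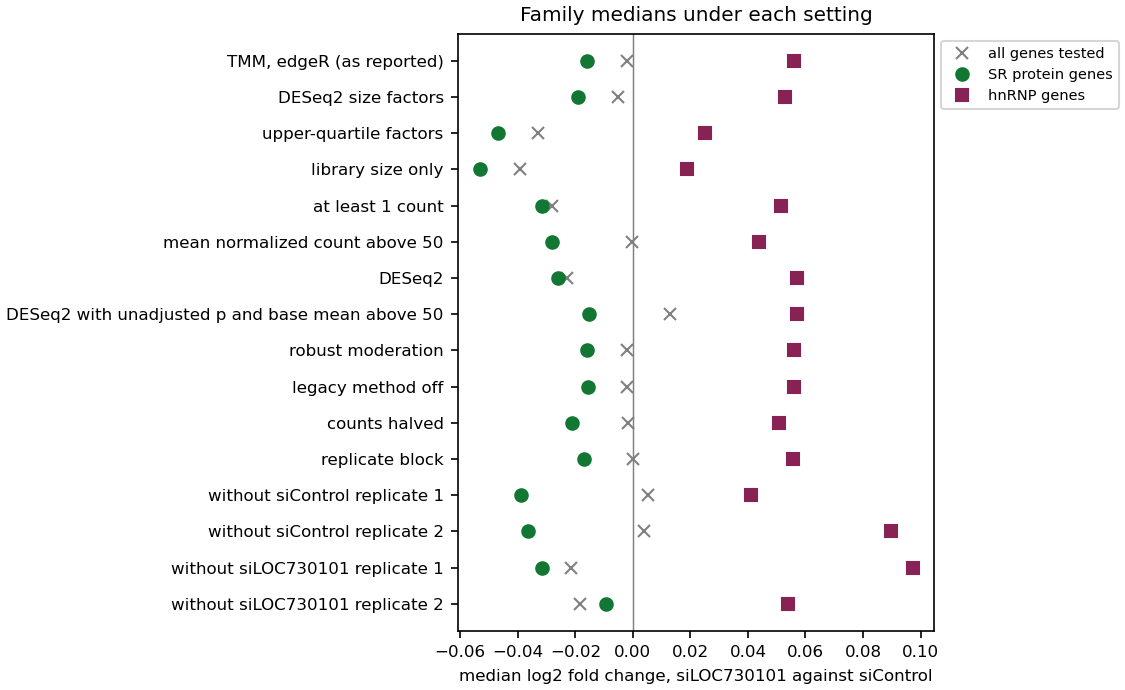
Median log2 fold change of the SR protein genes (circles), the hnRNP genes (squares) and all genes tested (crosses) under the reported fit and each of 15 alternatives. The hnRNP median stays above 0, from 0.019 with library size only to 0.097 without siLOC730101 replicate 1. The SR protein median stays below 0 in every setting, and that of all genes is below 0 in most. The SR protein median minus that of all genes runs from -0.044 without siControl replicate 1 to 0.0090 without siLOC730101 replicate 2.

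Levels between genes were compared as normalized CPM per kilobase of the merged exons. On this scale the members spanned a 22.4-fold range. The length takes in every annotated exon of a gene and can exceed that of its mRNA. It was 22512 bases for HNRNPU, which stood at 24.3 CPM per kb, and 2118 bases for HNRNPAB. The range and the order therefore depend on the annotation as well. HNRNPK (159.1 CPM per kb), HNRNPF (117.6) and HNRNPA1 (116.0) led, followed at a distance by HNRNPM (56.4), HNRNPC (54.1) and HNRNPAB (52.4). The ranges of HNRNPF and HNRNPA1 over the 4 libraries overlapped, while that of HNRNPK lay above both. SRSF8 (50.2), SRSF3 (42.1) and SRSF6 (37.3) were the highest SR protein genes on this scale, and SRSF4 (7.80) and HNRNPUL2 (7.12) the lowest members of their families, an order that changed when shared exon bases were left out. The family medians were 27.4 CPM per kb for SR protein genes and 29.4 CPM per kb for hnRNP genes. In 20 of the 30 neighbouring pairs of this order the ranges of the 4 libraries overlapped, so that those neighbours could not be ordered. HNRNPK, HNRNPA1, HNRNPA2B1 and HNRNPU together held 47.9% to 49.2% of the hnRNP counts of a library.

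Several members share exon bases with other genes, and reads over such bases were not assigned by the counting as run, which had no strand option and no option for overlaps. The shared part was 54.8% of the exon bases for HNRNPA3 (with NFE2L2 on the other strand), 46.7% for SRSF9 (GATC, other strand), 44.3% for HNRNPUL2 (the readthrough gene HNRNPUL2-BSCL2), 35.1% for SRSF1 (genes without a symbol, on both strands) and 27.7% for SRSF2 (MIR636 and, on the other strand, MFSD11). Per kilobase of exon that is not shared, HNRNPA3 moved from 21.3 to 47.2 CPM per kb, SRSF9 from 27.0 to 50.7, SRSF2 from 37.3 to 51.5, SRSF1 from 15.2 to 23.4 and HNRNPUL2 from 7.12 to 12.8. On that scale SRSF2 and SRSF9 stood above SRSF8 (50.2), SRSF6 (43.1) and SRSF3 (42.1), and HNRNPR (10.96) was the lowest hnRNP gene in place of HNRNPUL2. HNRNPK, HNRNPF and HNRNPA1 led on both scales, and 4 of the 5 highest members stayed among the 5 highest. The numbered pseudogenes of the members, 134 rows, held few counts. Those of HNRNPA1 came to at most 2.01% of the count of HNRNPA1 in a library, and those of HNRNPA3 to at most 2.62% of HNRNPA3.

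The study asks whether LOC730101 holds back miR-1-3p, so the members' 3′ UTRs were searched for its seed matches, after their fold changes were known. The mature miRNA (RefSeq, GRCh38.p14, chr20:62554351-62554372 for the copy used) is shown with its seed, bases 2 to 8, in capitals.
hsa-miR-1-3p: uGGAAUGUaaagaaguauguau
A site was counted where the annotated 3′ UTR of the gene's canonical transcript (GRCh37) held ACATTCC, ACATTCCA or CATTCCA on the strand of the gene. There were 8 sites in 7 of the 31 members (22.6%), and 22.2% of the 13457 tested genes with such a 3′ UTR held at least 1, with median 3′ UTR lengths of 2076 and 1303 bases. The 3 sites of the 8mer kind, the strongest class, are shown with the seed match in capitals.
SRSF9, chr12:120899750-120899757, minus strand: ctcagaatctACATTCCAgattgagg
HNRNPU, chr1:245017659-245017666, minus strand: aactttttaaACATTCCAcaagagga
HNRNPA3, chr2:178085874-178085881, plus strand: aatgtaacagACATTCCAtttgttaa
The site of SRSF9 starts at base 65 of a 3′ UTR of 347 bases, that of HNRNPU at base 86 of 4153, and that of HNRNPA3 at base 1754 of 4567. The 7mer matches included those of SRSF1, SRSF3 and HNRNPK and a further one in HNRNPA3. That of SRSF1 is shown since this gene had the lowest log2 fold change of the members.
SRSF1, chr17:56082608-56082614, minus strand: cctaacatctACATTCCcttcgtgtc
After siLOC730101, 5 of the 7 members with a site were above 0 (median log2 fold change 0.045), as were 17 of the 24 without one (median 0.036). SRSF9, with an 8mer, had the highest log2 fold change of the SR protein genes (0.18) and SRSF1, with a 7mer, the lowest (-0.16). Over all tested genes with a 3′ UTR the medians were -0.0095 with a site and 0.026 without. Genes with a site also had longer 3′ UTRs, with a median of 2982.5 bases against 978 without one. For the members these medians were 3611 and 1610.5 bases. Whether length accounts for the difference was not tested. A sequence match does not show that a site is used.

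Genes that act with the members were described from lists of 67 genes, all of which were tested. In edgeR 0 of them passed the adjusted threshold. At an unadjusted p under 0.05, 1 was higher and 3 were lower in edgeR (against 6.43% and 4.39% of all genes), and of the genes named here DESeq2 called PCBP2. Over all genes tested, 9747 of 19349 were below 0, with a median log2 fold change of -0.0021. The direction counts and medians of these lists were not repeated under other scalings or without single libraries. Of 13 kinases, phosphatases and import factors of SR proteins, 9 were below 0, with a median log2 fold change of -0.055. The kinases CLK3 and DYRK1A had log2 fold changes of -0.12 each, and SRPK2, a cytoplasmic SR protein kinase, had 0.10, and edgeR-adjusted p-values of 0.658, 0.664 and 0.690. Of 22 SR-related regulators, 16 were below 0 (median -0.071). CCNL1, a cyclin of speckles that regulates splicing through its kinase partners, had 80.8 and 76.2 CPM in siControl and 67.8 and 60.2 CPM in siLOC730101, a log2 fold change of -0.30 (SE 0.092, edgeR-adjusted p = 0.200). The edgeR-adjusted p of CCNL1 was 0.0309 with the replicate block and 0.00705 without siLOC730101 replicate 1, but 0.576 without siLOC730101 replicate 2. SREK1 and NKTR had log2 fold changes of -0.16 each, and edgeR-adjusted p-values of 0.515 and 0.635. NKTR was at -0.31 (edgeR-adjusted p = 0.00950) without siLOC730101 replicate 1 and at -0.015 (edgeR-adjusted p = 0.995) without siLOC730101 replicate 2.

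The hnRNP proteins that carry other names did not lie mostly above 0. Of 18 such genes, 7 were above 0 and 11 were below, with a median log2 fold change of -0.035. PCBP2 (hnRNP E2), a poly(C)-binding regulator of mRNA stability and translation, had 184.9 and 200.9 CPM in siControl and 153.6 and 155.9 CPM in siLOC730101, clearly apart. Its log2 fold change was -0.32 (SE 0.077, edgeR-adjusted p = 0.106), and the adjusted p was 0.00730 in DESeq2. Over the edgeR alternatives its adjusted p ranged from 0.00223 with the replicate block to 0.561 without siControl replicate 2. SYNCRIP (hnRNP Q) had 92.8 and 107.9 CPM in siControl and 86.9 and 86.0 CPM in siLOC730101, a log2 fold change of -0.21 (edgeR-adjusted p = 0.391) that moved to -0.32 when siControl replicate 1 was left out and to -0.098 when siControl replicate 2 was. RBM3, a cold-inducible RNA-binding protein, had a log2 fold change of 0.17 (edgeR-adjusted p = 0.413), with an edgeR-adjusted p of 0.0428 without siLOC730101 replicate 1 and 0.770 without siLOC730101 replicate 2. Of the related genes named here, CCNL1, PCBP2, SYNCRIP and RBM3 passed the unadjusted DESeq2 rule. They were named for having the lowest p of their lists. By this rule 7% of all genes with a base mean above 50 were higher and 3.33% were lower. Of 14 nonsense-mediated decay and exon junction factors, 5 were above 0, with a median of -0.015. EIF4A3, SMG8 and UPF1 had log2 fold changes of 0.13, 0.15 and 0.069, and edgeR-adjusted p-values of 0.628, 0.689 and 0.809. When each library was left out, SMG8 ranged from 0.047 to 0.28, EIF4A3 from 0.051 to 0.21 and, of the kinases, DYRK1A from -0.17 to -0.061.

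**Figure D5:**
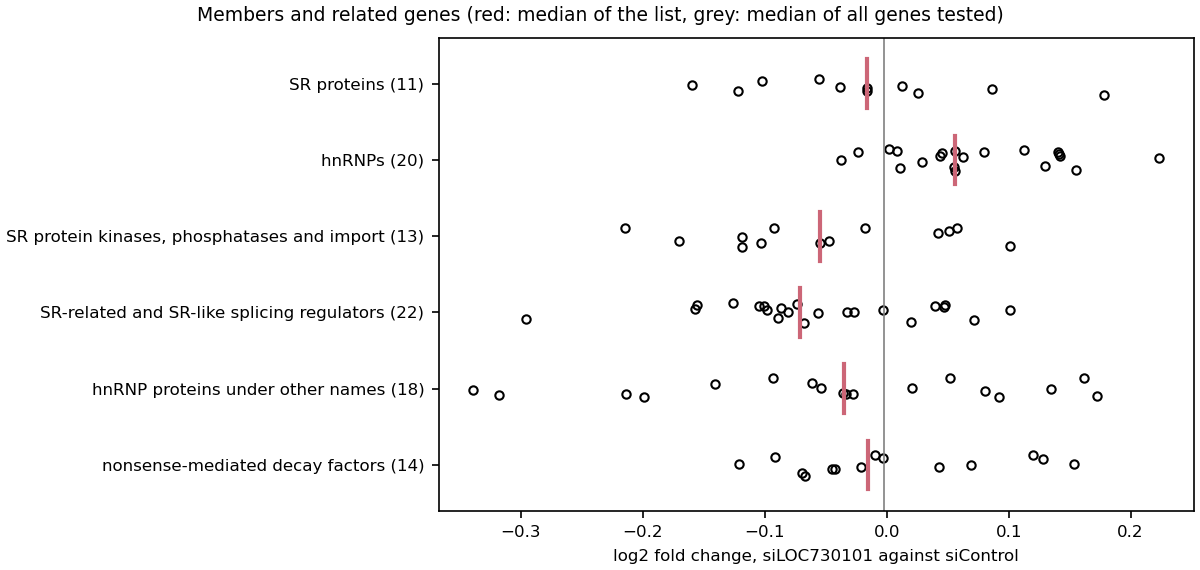
Log2 fold change of siLOC730101 against siControl for each tested gene of the 2 families and of the 4 related lists (circles; number of genes in brackets), with the median of each list (red) and of all genes tested (grey). The hnRNP genes center on 0.056 and the SR-related regulators on -0.071, and the ranges of all 6 lists overlap.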

How the data were processed

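RNA sequencing of 2 siControl and 2 siLOC730101 libraries of DaroR cells was analysed. Values are counts: reads were trimmed, aligned and assigned to exons by the authors with featureCounts 2.0.1, and the deposited table holds raw counts. Per the file headers, reads were counted by gene name on hg38 with gencode version 41 and no paired-end, strand or overlap option, while the paper's methods name hg19, and the aligner is given as STAR in the methods and BWA in the processing notes. Among genes with 1 to 20 counts, 66.0% to 70.1% of values were even, and a fit on halved counts was an alternative. Per the file headers, the exon length is that of the merged exons.

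Counts were fitted in R 4.3.3 with edgeR 4.0.16 (filterByExpr, TMM, glmQLFit at its package defaults, condition as the only term) over 19349 genes. Log2 fold changes are siLOC730101 against siControl, and p-values were Benjamini-Hochberg adjusted over all genes tested. The 95% intervals use the t quantile at the total degrees of freedom. The biological coefficient of variation was 0.147. DESeq2 1.42.0 was an alternative. Replicates of a group differed by more than sampling noise (chi-square per degree of freedom 8.96 and 10.3). Sites and overlaps were found with Python 3.11.15.

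Members and lists were chosen with earlier results of these data known. The members given in full were, in each family, the 3 highest per kb the 5 with the lowest p and any with an adjusted p under 0.05; of each related list, the 3 with the lowest p and any with an adjusted p under 0.05. Other members are given by value. Protein sequences were not used here. Some marker genes and a site sequence are not reported here.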

Additional observations from a re-analysis of the deposited data

How the results depend on the processing

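The knockdown of LOC730101 kept its direction and its call under every alternative run. In edgeR and DESeq2 fits with adjusted p-values and all 4 libraries, 0 members passed the threshold. The SR proteins called stayed at 0 in every alternative. The hnRNPs called were 2 with DESeq2 and the study's unadjusted rule, and ranged from 0 to 3 when each library was left out, with 3 (HNRNPAB, HNRNPC, HNRNPUL1) without siLOC730101 replicate 1, a fit in which 1195 genes were called and the lone sample is assumed to vary like the siControl libraries. The hnRNP median was 0.019 with library size only and ranged from 0.041 to 0.097 when each library was left out; the hnRNP median minus the SR protein median was 0.072, and ranged from 0.063 to 0.13. Ranking by CPM without length kept 3 of the 5 highest members. All genes called rose from 55 to 652 with the replicate block, and 0 members were called with it. Members with an unadjusted p under 0.05 in edgeR rose from 1 to 6 with the block. Same-numbered libraries had a deviation correlation of 0.027. It was not computed for the deeply covered members alone, so it does not decide whether the numbers mark pairs. The reported fit does not pair the libraries. The cause of the shifts between alternatives was not tested.

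Direction held in every alternative for 19 of the 31 members; the other 12 are close to 0. HNRNPLL was at -0.0010 with DESeq2 size factors, -0.029 with upper-quartile factors, -0.036 with library size only, -0.0023 with the filter at 1 count, -0.010 with a mean count above 50 and -0.0031 with halved counts. With upper-quartile factors and library size only, HNRNPA3 was at -0.021 and -0.028, HNRNPA0 at -0.0027 and -0.0098, HNRNPH3 at -0.023 and -0.030, SRSF8 at -0.019 and -0.026 and SRSF2 at -0.0047 and -0.011. With a mean count above 50, HNRNPA3 was at -0.0016 and HNRNPH3 at -0.0043. When each library was left out, the log2 fold change ranged from -0.13 to 0.053 for SRSF4, -0.068 to 0.040 for SRSF11, -0.067 to 0.093 for HNRNPA3, -0.042 to 0.10 for HNRNPA0, -0.029 to 0.051 for HNRNPH3, -0.069 to 0.17 for HNRNPUL2, -0.043 to 0.073 for SRSF8, -0.065 to 0.038 for SRSF3, -0.078 to 0.035 for HNRNPL, -0.10 to 0.031 for HNRNPD, -0.020 to 0.076 for SRSF2 and -0.020 to 0.031 for HNRNPLL. With 2 libraries a group, the 95% intervals set the limit: they lie within 1.5-fold for all 31 members. The same holds for 9787 of the 19349 genes tested.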
